A study of Mus musculus with 4 samples.

Results

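Genes in which more than 1 alternative splicing event was listed are described here. The authors' splicing table compares testes of wild type (WT) mice with testes of mice deficient in Ptbp2 and holds 1223 events. A gene was taken when it has 2 or more rows once rows without a printed name take the name above them. By that rule 214 of 915 genes (23.4%) were taken, with 522 of the 1223 events (42.7%), and the other 701 genes have 1 event each. The mice were C57BL/6 males at postnatal day 25, with 1 testis library for each of 2 WT mice and 2 Ptbp2-deficient mice. The latter are labelled a conditional knockout (cKO), and the promoter that drove the deletion is not given in the sources used here. Each event carries 1 ΔPSI, in points, which sets the percent spliced in of one genotype against that of the other. It has no value per library, no coverage and no p-value, and therefore no replicate error. The headers do not say which genotype was subtracted, and ΔPSI is therefore given as positive or negative, not as more or less inclusion.

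Ptbp2 belongs to the polypyrimidine tract binding proteins, which bind stretches of RNA rich in C and U beside or within exons and change which exons and splice sites are used. Testis is among the tissues with the most alternative splicing in mammals, and meiotic cells and spermatids use many exons that other tissues skip. When several splicing choices lie in 1 gene they can be the same choice described in more than 1 way, neighbouring choices, or separate choices far apart in the transcript. The table uses 6 codes, read here as cassette exon (cass, a single exon kept or skipped), tandem cassette exons (taca, a run of exons kept or skipped together), retained intron (iret), a shifted start or end of an exon (alt3 and alt5, alternative 3' and 5' splice sites) and mutx (mutually exclusive exons).

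Expression of Ptbp2 itself was higher in both libraries labelled cKO (111 and 98.2 RPKM, reads scaled to gene length and depth) than in the WT libraries (65.7 and 66.6 RPKM). A level summed over all exons cannot show whether some were deleted, so it checks nothing, and "libraries labelled cKO" is used below. Whole testis was sequenced, and cell type markers moved with genotype. All 12 spermatid markers looked up were in the expression table and lower, with summed levels of 1428 and 2017 RPKM in WT against 161 and 34.1 RPKM in libraries labelled cKO. Of 6 spermatocyte markers 2 were in the table and lower, while 1 of 5 Sertoli, 1 of 4 Leydig and 3 of 5 macrophage markers were there and higher, 1 of 3 myoid markers was lower, and 0 of 4 markers of spermatogonia were there. In bulk tissue fewer cells of a type and less RNA per cell cannot be told apart, and the part of this shift in any ΔPSI below was not tested.

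Most of the 214 genes have few events. There were 145 genes with 2 events, 53 with 3 and 11 with 4. Gtf2a2, Lrrfip2 and Rims2 have 5, Btrc has 6 and BC051142 has 8. In size the events were like those of single-event genes: the median absolute ΔPSI was 11 points in both, with quartiles of 5 and 18 points here and 6 and 18 there. Events of 20 points or more made up 113 of 522 (21.7%) against 144 of 701 (20.5%). Counted by gene the shares were 73 of 214 (34.1%) and 144 of 701 (20.5%), where a gene with more events has more chances to reach 20 points. Negative values prevailed similarly in both sets, with 197 of 510 nonzero ΔPSI positive (38.6%) against 272 of 685 (39.7%).

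The makeup by event type differed more than the size did. Tandem cassettes were 83 of 522 events (15.9%) in these genes and 30 of 701 (4.28%) in single-event genes, and mutually exclusive exons were 25 (4.79%) against 7 (0.999%). Both types describe more than 1 exon by definition. Where such an event and its exon are each listed, the gene has 2 rows and is taken by the rule. The higher shares therefore follow in part from the rule, and with overlapping events counted once 138 genes would be taken. Single cassettes were 289 events (55.4%) against 452 (64.5%), and retained introns 63 (12.1%) against 134 (19.1%). Cassette exons were of similar length, with a median of 96 nt against 102 nt, and a length divisible by 3 in 167 of 289 (57.8%) against 246 of 452 (54.4%). No test was made of these shares, since events of 1 gene share its transcripts.

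More than 1 event type was present in 165 of the 214 genes (77.1%), and 192 (89.7%) have at least 1 cassette exon. The most frequent of 24 combinations was cassette with tandem cassette, in 58 genes. Next came cassettes alone in 43 genes, cassette with retained intron in 24, with mutually exclusive exon in 16, with alternative 3' site in 14 and with alternative 5' site in 10. Counting single and tandem cassettes as 1 type lowered the share of mixed genes to 50.0% (107 of 214). By direction, all nonzero ΔPSI of a gene were negative in 92 genes and positive in 43, both signs occurred in 73, and 6 genes have a single nonzero event. The combinations differ in this respect. Of the genes with cassettes and tandem cassettes 23 were all negative, 27 all positive and 7 mixed, while the 5 genes with retained introns alone were all negative.

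**Figure D1:**
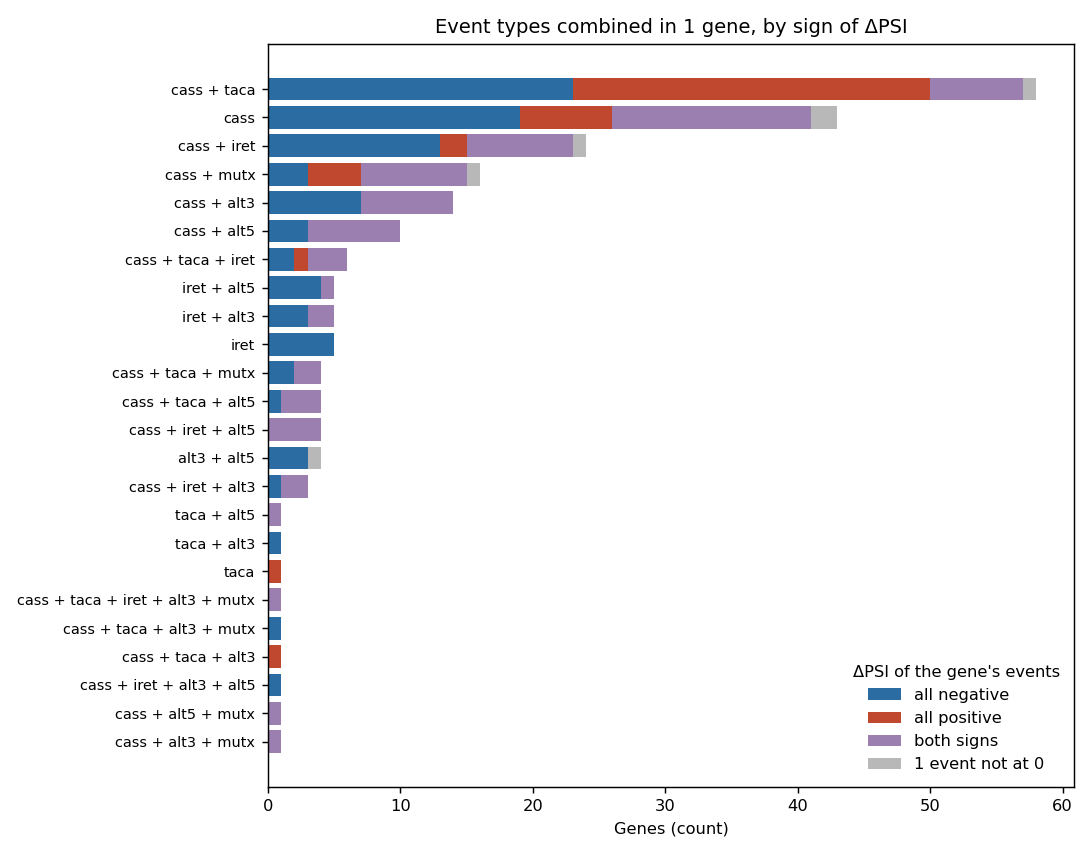
Number of genes (x axis) for each of the 24 combinations of event types (y axis), coloured by the sign of the gene's nonzero ΔPSI. Cassette with tandem cassette leads with 58 genes, and the 43 genes with cassettes alone include 15 with both signs.

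Events of 1 gene often occupied the same stretch of DNA. Of 443 pairs, 163 (36.8%) overlapped by at least 1 nt: 141 pairs had 1 event inside the other, 18 had identical coordinates and 4 overlapped in part. No pair adjoined with a gap of 0 nt, and the other 280 (63.2%) were apart by 72 to 134426 nt, with a median of 6298 nt. At least 1 overlapping pair was present in 109 genes (50.9%), and in 59 genes every pair overlapped. The smallest gap was between both cassettes of Spata7 and the largest between cassettes at the ends of Rims2. The events of a gene spread over a median of 3736 nt, with quartiles of 1273 and 13740 nt and the widest spread of 159058 nt in Btrc.

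Agreement in sign went with overlap. Among pairs in which neither ΔPSI was 0, 141 of 157 overlapping pairs had the same sign (89.8%, exact 95% binomial interval 84.0 to 94.1), against 144 of 261 pairs that were apart (55.2%, 48.9 to 61.3). The shares of positive events of each type alone would give 51.3% and 52.8%. The intervals cover counting error only and treat pairs as independent, which pairs of 1 gene are not. Overlapping events describe in part the same RNA and are not separate measurements. Their ΔPSI also lay closer together, with a median difference of 5.5 points against 12 points for pairs apart. Among pairs apart the share was 70.3% for gaps up to 1000 nt (26 of 37), 58.2% from there to 5000 nt (46 of 79), 43.3% from there to 20000 nt (29 of 67) and 55.1% beyond (43 of 78). The interval of the nearest class, 53.0 to 84.1, overlaps that of each farther class.

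At the level of genes, 135 of the 208 genes with more than 1 nonzero event had a single sign (64.9%, exact 95% binomial interval 58.0 to 71.4). It was 53 of 58 genes (91.4%) where every pair overlapped and 56 of 101 (55.4%) where none did. With overlapping events counted once, by the one with the largest absolute ΔPSI, 138 genes still have more than 1 event, and 69 of the 132 that could be judged have a single sign (52.3%). Of the 35 genes with several events of 20 points or more, 19 had only negative ones among these, 8 only positive ones and 8 both.

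**Figure D2:**
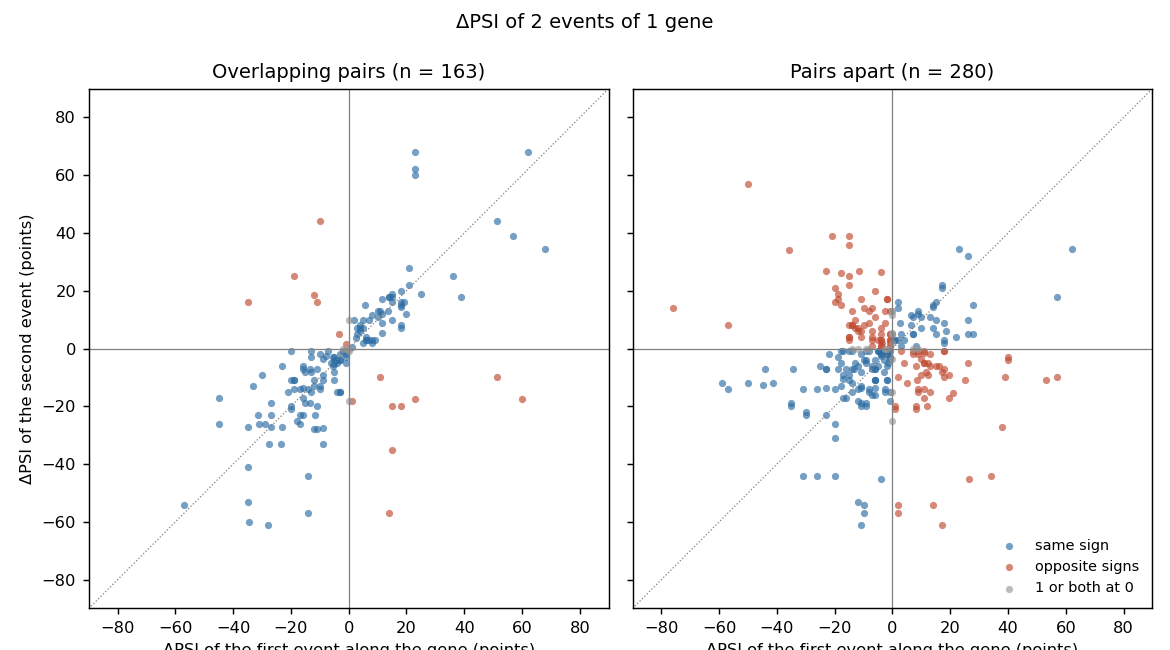
ΔPSI in points of the first (x axis) and second (y axis) event of each pair of events of 1 gene, for the 163 overlapping pairs and the 280 pairs apart. Overlapping pairs lie along the dotted line of equal values, with 141 of 157 nonzero pairs of the same sign, while pairs apart fill all 4 quadrants.

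**Figure D3:**
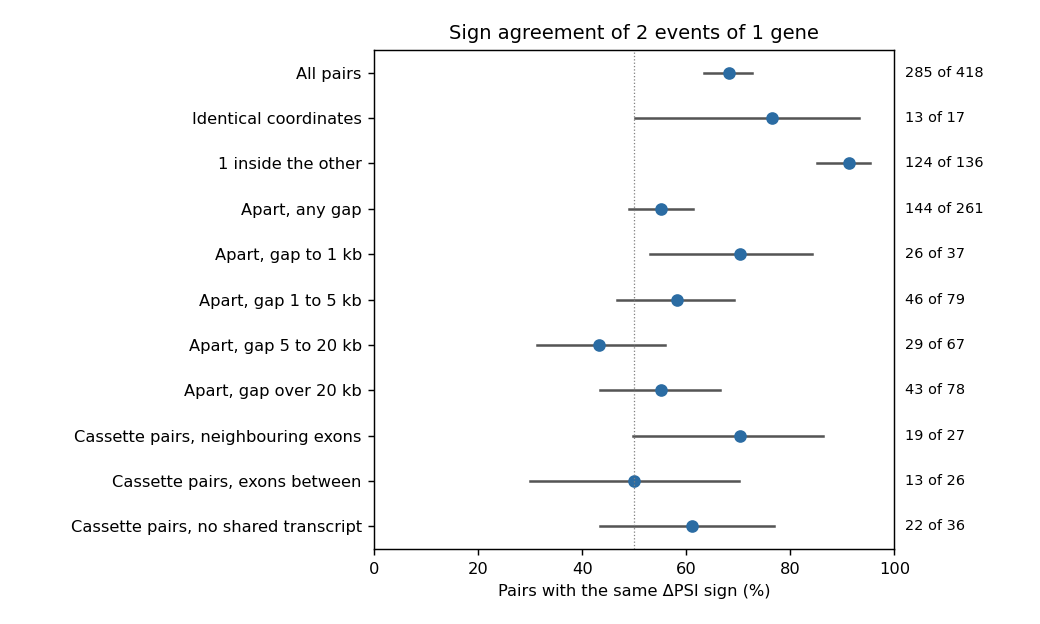
Share of pairs with the same ΔPSI sign in percent (points) with exact 95% binomial intervals (lines), by position, by gap and, for cassette pairs, by exon order in the annotation. The counts stand at the right; the highest share is for 1 event inside the other, at 91.2%.

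Single cassettes that overlap a tandem event formed the largest class of overlap, with 93 pairs. The cassette lay within the tandem event and shared an end with it in 80 of them and lay inside without a shared end in 9. Signs were the same in 85 of 89 nonzero pairs (95.5%) with a median difference of 5 points, against 14 of 25 (56.0%) where cassette and tandem event of a gene were apart. Immt, which encodes a core subunit of the complex that shapes mitochondrial cristae, carried the largest positive value of all 522 events. Its tandem event at chr6:71802724-71803262 (mm9, + strand) had a ΔPSI of 68, its 138-nt cassette 62 and its 96-nt cassette 34.5. The alternative 3' site at the coordinates of the 138-nt exon had 23. All 4 events of Immt are thus positive and lie within 539 nt.

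Several genes of this class had negative values of more than 20 points for cassette and tandem event alike. In Dctn1, the large subunit of the dynein activator dynactin, a 21-nt cassette had -53 and the tandem event that ends with it -35. Rapgef1, an exchange factor for the small GTPase Rap1, had -60 for a 258-nt cassette and -34.5 for the tandem event around it. Lrrc16a, a regulator of actin capping protein, had -41 and -35. The membrane skeleton genes Epb4.1 and Epb4.1l2 had -33 and -23.3, and -23 and -31.5, for cassette and tandem event in that order. In Lrrfip2, Plcd4, Gtf2a2 and 2900006K08Rik, by contrast, exons of 1 tandem event had opposite signs. In Lrrfip2, whose product binds the actin-remodelling protein Flightless, exons of 93 and 102 nt had 14 and -54 and the tandem event -57. In 2900006K08Rik the first exon (145 nt) had -20, the second (494 nt) 16 and the tandem event -11.

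For 22 tandem events 2 of their exons are also listed as single cassettes, so the choice can be read in 3 ways. All 3 values had 1 sign in 16 of them, and the tandem value lay between those of the 2 exons in 11. A value of 0 was counted here as a different sign, which applies to BC088983 (0, -25 and -18) and Uspl1 (0, 13 and 10). Pum2, a translational repressor that binds mRNAs, had -11 for its 125-nt exon, -61 for its 74-nt exon and -28 for the tandem event. Ccdc108, a gene for a protein of the sperm flagellum, had 57, 18 and 39. Mllt10, a partner of a histone methyltransferase, had -57, -14 and -14.2. In 6 of the 22 both listed exons have lengths divisible by 3: Btrc, Ctage5, Dis3l2, Immt, Lrrfip2 and Sec31a, named after their values were seen. Such a length keeps the reading frame where an exon is wholly coding, and the 78-nt exon of Dis3l2 is only partly coding in the annotation. In 2900006K08Rik, BC088983 and Ccdc108 neither length is divisible by 3 but their sum is.

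The coding exons of 4 of these in-frame pairs are printed to show the RNA that such a tandem choice adds or removes. Each exon was found in the GENCODE M21 transcripts (mm10) by its length and by the spacing of the gene's events, with no coordinate converted. Capitals mark TCTT and CTCT, the DNA letters of short C and U motifs bound by this protein family, overlaps included, on the sense strand.
Immt exon of 138 nt, chr6:71802724-71802861 (mm9, +), ΔPSI 62: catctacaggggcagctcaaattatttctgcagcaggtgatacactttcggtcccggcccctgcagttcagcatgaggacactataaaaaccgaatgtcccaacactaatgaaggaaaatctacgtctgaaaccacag
Immt exon of 96 nt, chr6:71803167-71803262 (mm9, +), ΔPSI 34.5: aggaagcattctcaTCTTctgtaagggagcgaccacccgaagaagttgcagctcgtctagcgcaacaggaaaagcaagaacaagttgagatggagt
Ctage5 exon of 72 nt, chr12:60245686-60245757 (mm9, +), ΔPSI 15: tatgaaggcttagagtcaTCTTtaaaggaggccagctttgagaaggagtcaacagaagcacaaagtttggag
Ctage5 exon of 27 nt, chr12:60247323-60247349 (mm9, +), ΔPSI 16: tttgttgaaggatcacaaatatcagag
Sec31a exon of 39 nt, chr5:100818087-100818125 (mm9, -), ΔPSI -15: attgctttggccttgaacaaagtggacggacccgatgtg
Sec31a exon of 78 nt, chr5:100817553-100817630 (mm9, -), ΔPSI -11: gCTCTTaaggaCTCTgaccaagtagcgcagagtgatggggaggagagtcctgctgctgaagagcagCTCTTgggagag
Btrc exon of 42 nt, chr19:45481035-45481076 (mm9, +), ΔPSI -23: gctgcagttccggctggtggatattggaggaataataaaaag
Btrc exon of 108 nt, chr19:45497623-45497730 (mm9, +), ΔPSI -13.5: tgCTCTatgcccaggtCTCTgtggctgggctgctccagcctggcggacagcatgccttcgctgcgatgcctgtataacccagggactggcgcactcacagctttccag
Sec31a, an outer coat protein of vesicles that leave the endoplasmic reticulum, and Ctage5, which helps load those vesicles with cargo, went in opposite directions: their tandem events had -19 and 18. Within each of these genes the neighbouring exons differed by 4 points or fewer. In each printed pair 1 exon holds TCTT or CTCT and the other does not, but the pairs were picked and other tandem pairs differ. Both exons of Ccdc108 and of Plcd4 hold a motif, and neither exon of Fxr1 or of Tlk2 does.

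Mutually exclusive exons, where 1 of 2 exons is used, paired with a cassette in 35 cases. Where they overlapped, the listed mutx exon was the same exon as the cassette or lay inside it or around it, and 12 of 13 nonzero pairs had the same sign. Where they were apart, 8 of 20 had the same sign (40.0%, exact 95% binomial interval 19.1 to 64.0). Rangap1, which activates the GTPase activity of Ran for nuclear transport, had the widest span of all genes: -50 for a 48-nt mutx exon and 57 for a 209-nt cassette 2934 nt away. No annotated transcript holds both of those exons. Pbrm1, a subunit of a chromatin remodelling complex, had 34 for a 140-nt mutx exon and -44 for a 113-nt cassette 207 nt downstream, and the annotation holds a transcript with both side by side. Camk2g, a calcium- and calmodulin-dependent kinase, had -21 and -15 for its 33-nt exon as mutx and as cassette, and 39 for the 69-nt exon that follows. Fbxo34, which encodes an F-box protein, had -4 for the mutx exon, 26.5 for a tandem event and -45 for a cassette, none of which overlap. Pkm, pyruvate kinase, known for its choice between mutually exclusive exons, had 11 for its 167-nt mutx exon and 13 for a 117-nt cassette 11872 nt upstream.

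Retained introns were negative almost throughout, with 5 of 63 positive (7.94%) here and 14 of 130 (10.8%) in single-event genes. Lengths show that the table gives such an event from the start of the exon before to the end of the exon after the intron, in 153 of 197 events in annotated genes. In 16 pairs a cassette lay within such a stretch. In 12 of these the cassette shared neither end, so that it was neither outer exon, and 11 of the 12 had the same sign, all negative. This group, named after its values were seen, includes Clk1, a kinase of splicing factors, with -19 for a 91-nt cassette and -14 for the intron around it. It further includes the splicing genes Hnrnph1 (-5.5 and -5) and Sf3b1 (-1 and -3), and the ribosomal protein genes Rpl12 (-1 and -20) and Rps24, whose 18-nt and 20-nt exons had -3 and -8 and whose intron had -13. The exception was Ccnl1, a cyclin of splicing kinases, with 1 and -18.

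In the remaining 4 pairs the cassette shared an end with the retained-intron stretch and was thus an outer exon of it, and 3 of the 4 had opposite signs. Idh3b, a subunit of the NAD-dependent isocitrate dehydrogenase, had 51.5 for the 171-nt cassette, 44 for an alternative 3' site and -10 for the retained intron in the same 418 nt. Sugp2, a protein with domains found in splicing factors, had 16 for an 87-nt cassette, 15 for an alternative 5' site and -35 for the retained intron, and the latter 2 have identical coordinates. Ccdc163 had 18, 15 and -20 for cassette, alternative 3' site and retained intron. Bspry, with -3 and -15, was the pair with the same sign.

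Of 9 pairs of retained introns in 1 gene, none overlapping, 8 had the same sign, where the share of positive retained introns alone would give 82.2%. Tmem191c had -35 and -20, Arfrp1 -14 and -12, Pomt1 -5 and -6, Mum1 -4 and -2.5 and Trim28 -1 and -3. The exception was Prkcd, a protein kinase C isoform, whose introns had 25 and -15 and whose alternative 5' site, within the stretch of the first of these, had 36. Dab2ip, a Ras GTPase activator, had -23 for a retained intron and -30 for an alternative 3' site. Fam116b had 17 and -61 for the same types.

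**Figure D4:**
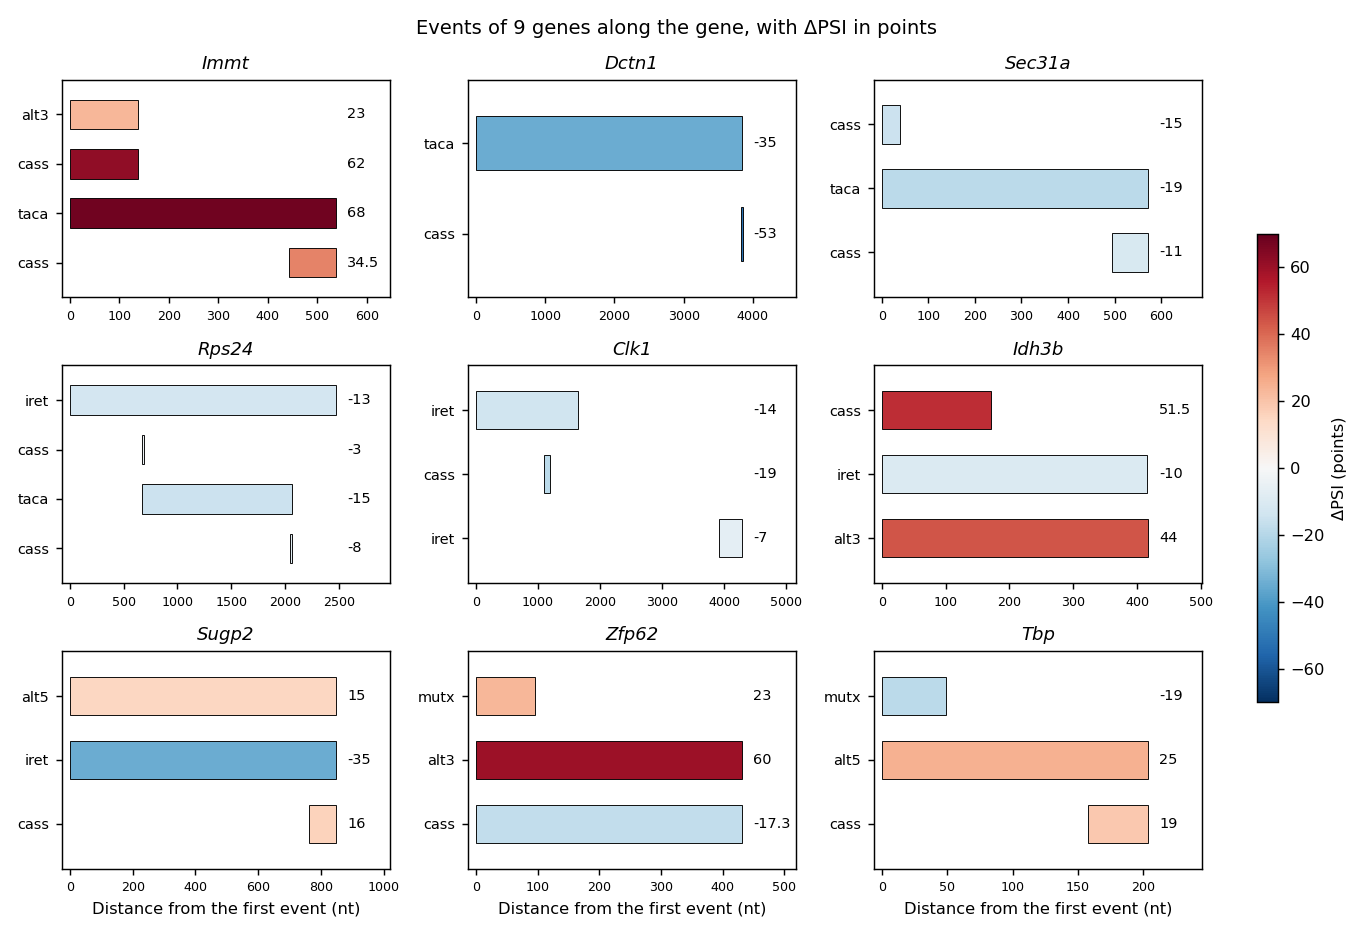
Events of 9 genes drawn to scale as distance from the gene's first event in nt (x axis, in the direction of transcription), 1 bar per event, the narrowest widened to be visible, with its type at the left and its ΔPSI in points at the right and as colour. In Immt, Dctn1, Sec31a, Rps24 and Clk1 all bars have 1 colour, while in Idh3b, Sugp2, Zfp62 and Tbp overlapping bars have opposite colours.

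Only 16 overlapping pairs, in 12 genes, had opposite signs. Of these 8 involve a retained intron, and 15 share at least 1 end. Zfp62, a zinc finger gene, had 60 for an alternative 3' site and -17.3 for a cassette with the same coordinates (432 nt), and 23 for a mutx exon at their start. Tbp, which encodes the TATA-binding protein of basal transcription, had 25 for an alternative 5' site, 19 for a 46-nt cassette at its end and -19 for a 49-nt mutx exon at its start. Luc7l2, a U1 snRNP-associated gene, had -12 for a retained intron and 18.5 for a tandem event that starts at the same base.

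Alternative splice sites mostly moved with the cassette that they overlap, in 9 of 10 nonzero pairs for 3' sites and 7 of 8 for 5' sites. Smc5, of a complex that maintains chromosome structure, had -27 for both a 45-nt cassette and the alternative 5' site that contains it. The gene 9530077C05Rik had -29 and -26 for cassette and 3' site. Atg13, which starts autophagy, had -45 for a 99-nt cassette, -26 for a tandem event and -17 for an alternative 5' site. Apart from each other, cassettes and alternative 5' sites had the same sign in 3 of 16 pairs (18.8%, exact 95% binomial interval 4.05 to 45.7) and cassettes and alternative 3' sites in 11 of 20 (55.0%). Examples of the first are Tulp2, a tubby-like gene, with 25 for a cassette and -11 for the 5' site. Eps15, an endocytic adaptor, had -15.5 and 21, and Mprip, which targets myosin phosphatase to actin, had 40 and -3. Clip1, a protein of growing microtubule ends, is among the 3 alike, with -30 and -22. The interval for cassettes and 5' sites apart treats pairs as independent, although the 5' site of Abcc12 is paired with each of its cassettes. Other type pairs were counted too, and this share was not tested.

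Single cassettes of 1 gene never overlapped, and 60 of 97 nonzero pairs had the same sign (61.9%, exact 95% binomial interval 51.4 to 71.5). In the annotation 94 of all 103 cassette pairs could be placed. Among those with neither ΔPSI at 0, exons next to each other in a transcript had the same sign in 19 of 27 pairs (70.4%), those with exons between in 13 of 26 (50.0%), and those never found in 1 transcript in 22 of 36 (61.1%). The 3 intervals overlap. Many of the neighbouring pairs are both exons of a listed tandem event, as in Immt, Sec31a and Btbd10, and are not separate from that class. Neighbours outside it went both ways: Bptf (-2 and -6) and Tusc3 (2 and 3) had the same sign. Camk2g (-15 and 39) and Rnf14 (19.5 and -17) had opposite signs. Scrib, which sets cell polarity, had -50 for an 84-nt exon and -12 for a 75-nt exon with 6 exons between. Dgkh, a diacylglycerol kinase, had -45 and -12.5, and Zfand6 had 26 and 32. Wdr52, a gene of the sperm flagellum, held the largest negative value of these genes, -76 for a 480-nt exon that is noncoding in the annotation, beside 14 for a coding exon of 131 nt.

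Neighbouring exons of Lrrfip2 are printed as a pair within 1 gene with opposite ΔPSI, with the microexon of Dctn1 for its size. All 3 are wholly coding with lengths divisible by 3, and capitals mark the same motifs.
Lrrfip2 exon of 93 nt, chr9:111110301-111110393 (mm9, +), ΔPSI 14: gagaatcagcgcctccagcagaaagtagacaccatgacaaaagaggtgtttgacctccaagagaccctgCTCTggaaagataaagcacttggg
Lrrfip2 exon of 102 nt, chr9:111116317-111116418 (mm9, +), ΔPSI -54: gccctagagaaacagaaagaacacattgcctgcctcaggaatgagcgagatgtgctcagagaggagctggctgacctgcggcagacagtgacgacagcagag
Dctn1 exon of 21 nt, chr6:83137758-83137778 (mm9, +), ΔPSI -53: accacaactcgacggcccaag
Of these 3 exons, the 93-nt exon of Lrrfip2 holds CTCT and the others hold neither motif. Over the 155 wholly coding cassettes of these genes, TCTT or CTCT is present in 49 of 81 exons with negative ΔPSI (60.5%) and 38 of 71 with positive ΔPSI (53.5%). The exons differ in length, with medians of 75 and 102 nt, and in C and T content, with medians of 47.9% and 43.8%. The 155 include 109 with a length divisible by 3, against 20 of 45 partly coding and 22 of 57 noncoding cassettes. Intron sequence, where this protein family also binds, was not used here.

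Among the genes with the most events, Btrc, the substrate receptor of a ubiquitin ligase, had 6 events of 4 types that were all negative, from -6 to -23. Its exons of 42 and 108 nt are each listed as cassette and as mutx exon, with -23 and -6 for the first and -13.5 and -7 for the second, and both lie in a tandem event with -16. Rims2, a scaffold of vesicle release sites, had 5 negative events. Its 252-nt exon had -44 as mutx and -14 as cassette, and cassettes of 66 and 68 nt had -31 and -20. Lrrfip2 had both signs: beside the exons described above, a 72-nt exon upstream had -10 and a second tandem event 2. BC051142 had 8 events of 5 types spread over 43493 nt, from -15 and -14 for its retained introns to 13 for 1 of its tandem events. Gtf2a2, a subunit of a general transcription factor, stayed between -3.5 and 5. Strada, which activates the kinase LKB1, had a cassette at -20 and a tandem event at -21 that shares its end, and another cassette at 8. Abcc12, a transporter gene, had 17 for an alternative 5' site, -11 for a retained intron and -2 for each of 2 cassettes.

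Listed by function, members were few in each group, where 214 of the 915 genes with an event have several. Among all 214, more genes are all negative than all positive, as given above, and no list was tested against these shares. Of 69 genes listed for membrane traffic, 25 have an event and 9 have several. Of these Dctn1, Sec31a, Sec16a, Clta, Dnm2, Ap1m1 and Kif1b were all negative, and 2 genes, Eps15 among them, had both signs. Sec16a, which organises exit sites of the endoplasmic reticulum, had -20 for both cassette and tandem event, and Kif1b, a kinesin, -22 and -2. Of 54 genes for RNA binding and splicing, 19 have an event and 7 several, 4 all negative and 3 with both signs. Fxr1, a relative of the fragile X protein, had 4, 3 and 8 for exons and tandem event and -15 for a retained intron. Rbm39 had -11 and -2. Of 24 genes on the mitochondrial list, 7 have an event and 4 several, 2 all positive and 2 with both signs. Pkm was on that list although its product, pyruvate kinase, is a glycolytic enzyme of the cytosol. Immt and Pkm had only positive events, while Idh3b and Mff, a receptor for mitochondrial fission, had both signs. Mff had 10 for 1 cassette and -9 for another.

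For adhesion, 4 of 9 genes with an event have several: Scrib was all negative, and Lrrfip2, Dst (-6 and 20) and Cadm1 had both signs. Cadm1, an adhesion molecule by which germ cells bind Sertoli cells, had -11 for an 84-nt cassette and 4 for a 33-nt cassette. For actin it was 2 of 11, where Enah, an actin filament elongation factor, had -34.5 and -7, and Mprip both signs. For chromatin and transcription it was 5 of 10, with Ehmt2, a histone H3 methyltransferase, at -16, -17 and -17, Gtf2i at 8, 6.5 and 11.5, and both signs in Mllt10 and in Crem, an activator of spermatid genes (9 and -2). Of the spermatid list 3 of 5 have several events, all under 12 points: Odf2, of the outer dense fibres, had 11, -1.5, -5 and -1, and Adam3, a sperm surface gene, had 5 and 0. The spermatocyte list holds 1 of 5, Stag3, a meiotic cohesin subunit, at 16 and 2.

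Expression could be read for 19 of the 214 genes (8.88%), those in the authors' table of 988 differential genes, against 69 of 701 single-event genes (9.84%). All 19 were lower in the libraries labelled cKO and none overlapped between groups, where 93.6% of the whole table is listed as lower and 93.6% has both labelled cKO libraries below both WT libraries. In limma, fitted to log2(RPKM + 1) of all 988 genes with p-values adjusted by Benjamini-Hochberg (BH), 16 of 19 fell and 0 rose (17 and 0 at an unadjusted p under 0.05), where 83.9% of the table fell and 1.92% rose. The share of members that fell is thus near that of the table, which the authors had selected for difference on the same libraries. The median limma difference was -1.17 for the 19 against -1.59 for all 988. In the authors' deposited table the median log2 fold change was -1.17 for them and -1.24 for single-event genes. Without WT library 1 or 2 limma called 3 and 1 of the 19 lower, beside 388 and 353 of the 988 genes. Without either labelled cKO library it called all 19, but also each of the 988 genes (925 lower and 63 higher), so this count says nothing about the members.

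The gene 1700029G01Rik fell most, from 57.5 and 64.4 RPKM in WT libraries 1 and 2 to 13.1 and 4.15 RPKM in those labelled cKO. The limma difference of -2.86 ± 0.55 (SE) had a BH-adjusted p of 0.0177, and its cassette and retained intron had 11 and -6. Tmem191c was at 6.02 and 7.42 RPKM against 1.44 and 0.79 RPKM, and both of its introns were negative. Dgkh was at 15.4 and 16.2 against 3.86 and 2.14 RPKM, and Adam32, a germ cell gene of the ADAM family, at 312 and 319 against 102 and 75.4 RPKM. Wdr52, with the -76 event, was at 28.8 and 28.4 against 12.1 and 8.55 RPKM, a difference of -1.40 ± 0.30 (SE) and a limma BH-adjusted p of 0.0177. In each of these genes the WT libraries lay close together and labelled cKO library 2 was the lowest, as in all 19.

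The remaining falls named by rule were 2810408A11Rik, Spata7, Tulp2, Prom1, Ccdc30, Plcd4 and Slco6d1, with limma differences from -2.07 for 2810408A11Rik to -0.99 for Slco6d1. With the replicate number as a block the limma BH-adjusted p rose to 0.0623 for Ccdc30, 0.0705 for Plcd4 and 0.110 for Slco6d1, and for Slco6d1 it was 0.0627 with a pseudocount of 0.1 and 0.0696 over genes above the median RPKM. Rpgrip1, a ciliary gene, did not pass, with 25.7 and 25.0 RPKM against 16.2 and 13.0 RPKM and a limma BH-adjusted p of 0.0532, nor did Sdccag8 (0.0614) or Dnajb2 (0.0715). With the libraries set to an equal median, which moves the median of all genes from -1.59 to 0.54, 14 of the 15 named genes change sign, and 1700029G01Rik keeps -0.73. In that fit 0 of the 19 fell and 11 rose, beside 137 and 370 of all 988. By ΔPSI the 19 genes were 11 all negative, 2 all positive and 6 with both signs, and 6 have an event of 20 points or more. The other 195 genes are not in the expression table, so their level was not analysed here.

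**Figure D5:**
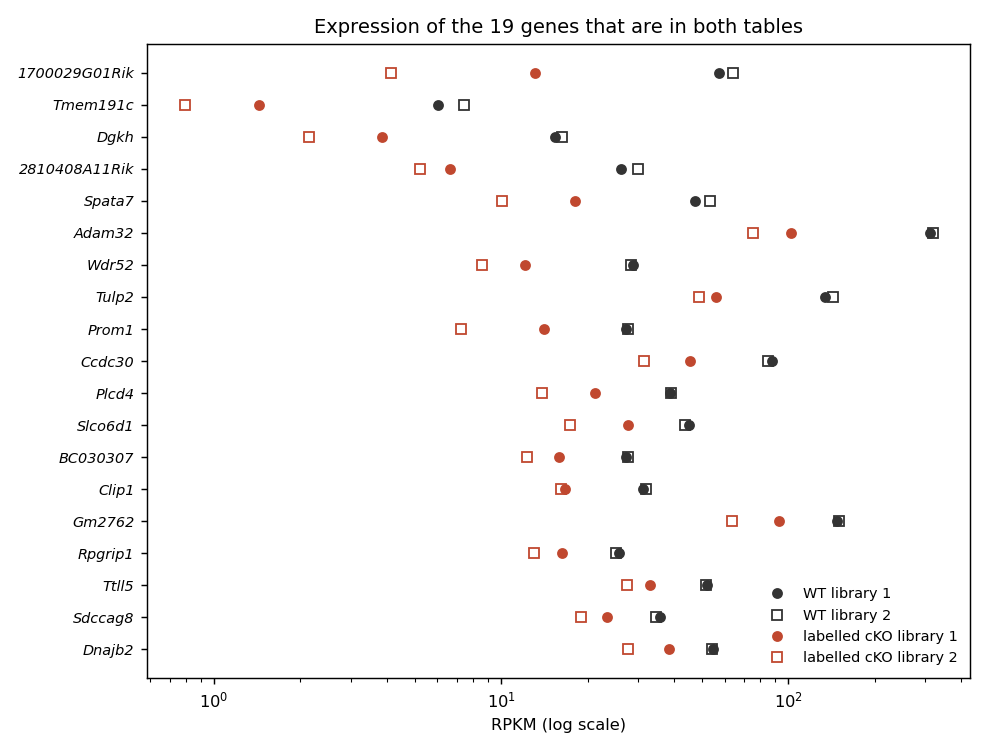
RPKM on a log scale (x axis) of the 19 genes in both tables (y axis, by deposited fold change) in 2 WT libraries (black) and 2 libraries labelled cKO (red). Every red symbol lies to the left of both black ones, and the open red squares of labelled cKO library 2 are the lowest in all 19 genes.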

How the data were processed

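Testis RNA of 4 mice was sequenced from paired-end ScriptSeq libraries, per the labels' protocols, which name both poly(A) selection and ribosomal RNA depletion. The submitters' processing notes name builds mm9 and mm10 without their role. For the aligner, counter and splicing caller, names are not given in the sources. The authors deposited RPKM per library, the log2 fold change of the genotype means and an adjusted p-value for 988 genes, and 1 ΔPSI per splicing event, per the file headers. Read totals are unknown, so no counting interval can be given for RPKM. ΔPSI is 1 value between genotypes, and the headers do not name the libraries that entered it.

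Splicing coordinates were read as mm9 because few fit mm10, the other build named. Of 734 cassettes, 705 match an annotated exon in length, and 18 in mm10 coordinates (GENCODE M21). An mm9 annotation was not compared. Coordinates were counted from 1 for printing. A gene was placed on the annotation when at least 2 of its intervals matched exons at 1 spacing, which placed 189 of 212 annotated genes. The 308 unnamed rows took the name above them. Pairs are all pairs of events of a gene, and overlap is at least 1 shared nt. Events at 0 were left out of sign counts, except for tandem events listed with 2 of their exons. Of the 522 ΔPSI, 43 are not whole points.

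For expression, log2(RPKM + 1) of all 988 genes was fitted in limma 3.58.1 (R 4.3.3) without a block, at an adjusted threshold of 0.05. Such differences understate the change of low genes. A two-sided exact permutation test of 2 against 2 could not go below 0.333. The labels give each library as its own mouse. Python 3.11.15 with pandas 2.3.3 and scipy 1.17.1 did the counting. The pair classification and limma were tested on simulated data.

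Members and lists were chosen with earlier results of these data known. Genes are named by rule: most events, widest span of both signs, largest smallest value of 1 sign, expression, best of each type pair, functional lists, and overlapping pairs of opposite sign. Others named are examples chosen after their values were seen. Alternatives changed the minimum ΔPSI, the counting of overlaps, the types counted, the pseudocount, the genes tested, the scaling, the block and the libraries. One result is not reported here.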

Additional observations from a re-analysis of the deposited data

How the results depend on the processing

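Taking events of 20 points or more left 35 genes, of which 82.9% mix types and 77.1% have 1 sign, and 57.4% of their pairs overlap and 83.0% have the same sign. Counting overlapping events once (138 genes, an alternative chosen after seeing the data for the number of genes) gave 52.3% of genes and 53.9% of pairs with 1 sign. Genes with exactly 2 events gave 73.6% for both, cassettes alone 61.9% of pairs, and pairs apart, also added after seeing the data, 55.2%. With single and tandem cassettes as 1 type 50.0% of genes mix types. In limma the count of members that fell was 9 of 17 over genes above the median RPKM (312 of all 494 tested) and ranged from 1 to 19 without 1 library, and the median difference ranged from -1.43 to -0.91. With an equal median, set in a table where most genes are lower, the median was 0.97, 0 fell and 11 rose (137 and 370 of all 988), and the named genes took 0.26 (Tmem191c), 0.027 (Dgkh), 0.068 (2810408A11Rik), 0.31 (Spata7), 0.30 (Adam32), 0.73 (Wdr52), 0.75 (Tulp2), 0.78 (Prom1), 0.97 (Ccdc30), 1.00 (Plcd4), 1.15 (Slco6d1), 1.37 (Rpgrip1), 1.42 (Sdccag8) and 1.42 (Dnajb2). With the replicate number as a block 9 of 19 members fell (622 of all 988), and with the crossed pairing 12 (758). The latter was added because the difference between WT libraries 1 and 2 correlated over genes at -0.331 with that between labelled cKO libraries 1 and 2. The causes of these shifts were not tested. ΔPSI has 1 value per event, so no alternative could leave out a library there.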
